A study of Aspergillus aculeatus with 24 samples.

Results

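The comparison described here sets strain BCC56535 of Aspergillus aculeatus against strain BCC199 while both grew on glucose. It rests on 8 of the 24 RNA-seq libraries of the series, 4 for each strain, chosen by their labels for strain and medium. Each strain was sampled on day 3 (72 h) and on day 6 (144 h), with replicates A and B at each time. The mycelium of all 8 was grown aerobically at 30 °C in the glucose medium, and no treatment or genetic change sets the strains apart in the labels beyond the strain name. The series describes its strains as unequal in breaking down plant biomass. The labels do not say how BCC56535 and BCC199 are related or which of them is the better degrader. Replicates A and B are tagged as biological, with no word on separate cultures, so each p-value speaks for the spread among the libraries at hand, part of which may be technical. The other 16 libraries come from the same 2 strains on wheat bran-soybean (8) and from a further strain, HUT2365 (8).

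Aspergillus aculeatus is a black Aspergillus, a mould that secretes cellulases, hemicellulases and pectinases to feed on plant material. In Aspergillus species glucose represses many of the genes for such enzymes and for the use of other carbon sources, a control known as carbon catabolite repression, in which the repressor CreA takes part. Inducers released from plant polymers act through activators such as XlnR. A glucose culture is therefore a usual state against which induction is read. The glucose left in the medium at 72 h and 144 h is not known from the labels. The deposited table holds gene IDs without gene names, and 0 of its 8615 IDs matched an entry among the 11152 genes of the RefSeq table for assembly Aspac1. No enzyme, regulator or transporter can therefore be named, and IDs are given as deposited.

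The 8 libraries held 20902450 to 30003709 reads, as whole reads recovered from the normalized values. Strain was by far the widest split among them. It took 72.9% of the variance of the log2 values over the 8347 IDs tested, day took 7.77%, the strain by day term 8.72% and the replicates 10.6%. On the first principal component, with 73.0% of the variance, the 4 BCC56535 libraries stood between 82.4 and 92.1 and the 4 BCC199 libraries between -90.0 and -83.7. The second component, with 13.0%, parted day 3 (49.2 and 51.3) from day 6 (-60.0 and -44.8) within BCC56535, while the BCC199 libraries stayed between -3.12 and 3.998. The BCC199 day 3 replicate A stood apart from the other libraries of its strain on the third component (4.59% of the variance), at 36.7 against -15.2 to -10.9. In BCC56535 that component parted replicate A (28.2 on day 3 and 15.1 on day 6) from replicate B (-24.9 and -16.9). Without the BCC199 day 3 replicate A 3657 IDs were called for the strain effect in glucose, against 4097 with it.

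**Figure D1:**
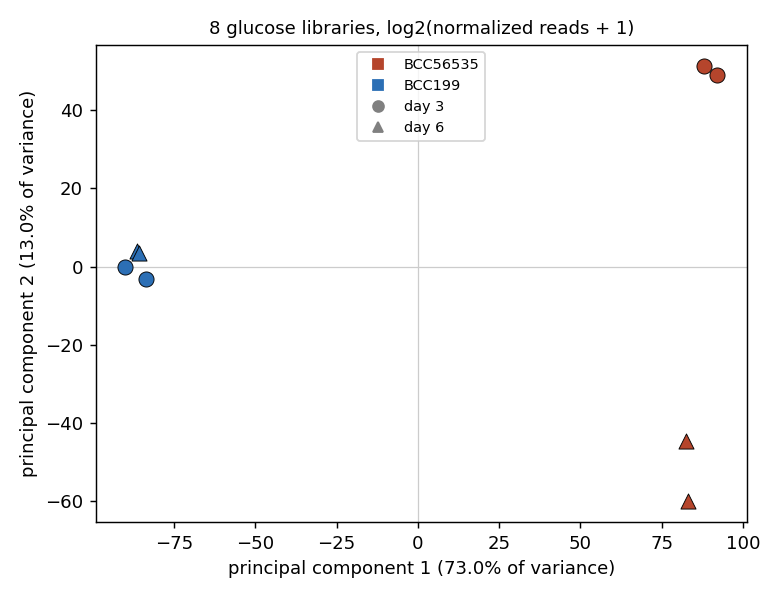
Scores of the 8 glucose libraries on the first and second principal components of log2(normalized reads + 1); colour marks the strain and shape the day. The strains part on the first component (73.0% of the variance), and the days part on the second (13.0%) in BCC56535, whereas the BCC199 libraries lie together.

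Pairs of libraries gave the same picture in fold terms. A BCC56535 and a BCC199 library of the same day differed at least 2-fold in 42.4% to 46.9% of the IDs, and libraries of different days in 41.1% to 47.0%. Within BCC56535, day 3 and day 6 libraries differed at least 2-fold in 22.5% to 29.1% of the IDs, and replicates of a day in 12.9% and 13.1%. Within BCC199 the shares were 11.3% to 13.7% between days, 13.7% between the day 3 replicates and 4.13% between those of day 6. In BCC199 the days thus lay no farther apart than the day 3 replicates did.

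The number of IDs in use was not shown to differ between the strains. In BCC56535 191, 152, 230 and 198 IDs had 0 reads (day 3 A and B, day 6 A and B), and in BCC199 216, 199, 227 and 229. The means were 193 ± 32.0 and 218 ± 13.7 (SD, n = 4), a difference of -25 IDs (two-sided exact permutation test, p = 0.257; the smallest p possible with 4 against 4 is 0.0286). The 10 IDs with the most reads took 5.42% ± 0.75 of the reads in BCC56535 and 5.65% ± 0.409 in BCC199 (SD, n = 4; exact permutation p = 0.629). The groups overlapped on both measures. Permuted within each day, the IDs with 0 reads gave p = 0.167 (exact permutation test, smallest possible p 0.0556). Their counts were not adjusted for depth, which differed among the libraries.

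With day as a covariate, 4097 of the 8347 IDs (49.1%) differed between the strains in glucose at an adjusted p under 0.05 (limma with Benjamini-Hochberg adjustment). BCC56535 was higher for 2051 (24.6%) and lower for 2046 (24.5%). The scaling of each library by a size factor centres the differences (median log2 0.03 over all IDs), so this even split is no finding about the strains. The median log2 difference was 1.56 for the IDs higher in BCC56535 and -1.47 for those lower. Among the IDs tested, 35.4% were called with a 2-fold or wider difference (1486 higher and 1468 lower). Calls of at least 4-fold made up 17.9% (773 and 725), at least 16-fold 5.62% (253 and 216) and at least 256-fold 0.467% (19 and 20). Over all IDs tested the median absolute log2 difference was 0.73. RNA came from whole mycelium, so fewer hyphal cells with a transcript and less of it per cell cannot be told apart.

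The libraries of the strains did not overlap for 3787 IDs (45.4%), with BCC56535 higher for 1867 (22.4%) and lower for 1920 (23.0%), and 3564 of these passed the test. Of the 4250 IDs that did not pass, 2380 had a 95% interval of the difference that lay within 2-fold in either direction. For 458 others the interval reached 4-fold or more, so a wide difference may be missed there. The labels do not name the genome that each strain's reads were aligned to. A fixed difference in how reads of an ID were counted in each strain and a difference in RNA level cannot be told apart in these counts. Without any 1 library, 3303 to 3854 IDs were called.

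**Figure D2:**
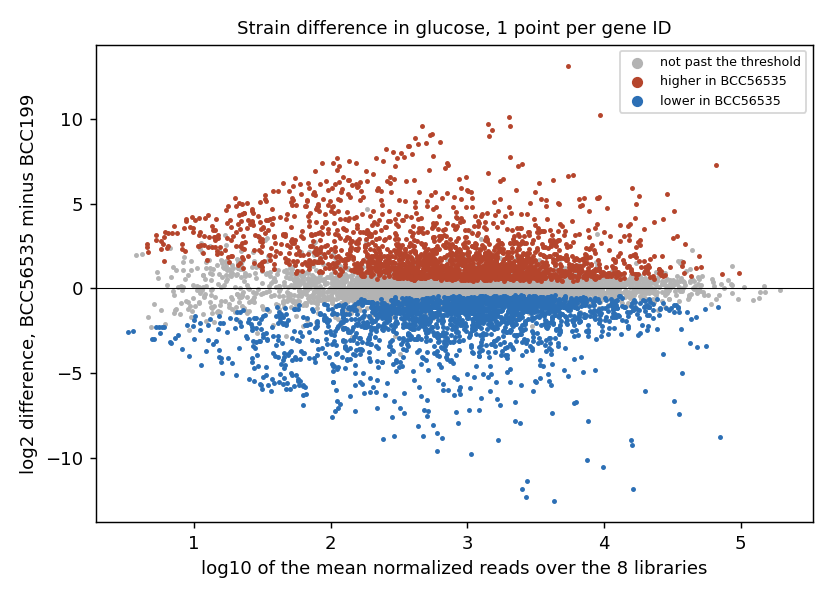
Strain difference in glucose for each of the 8347 IDs tested, as log2 of BCC56535 minus BCC199, against log10 of the mean normalized reads over the 8 libraries. Red and blue points are the 2051 IDs higher and the 2046 lower in BCC56535 at an adjusted p under 0.05, and grey points did not pass; the differences are centred near 0 by the scaling of the libraries.

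Calls, and wide differences above all, were less frequent among IDs with many reads. Among the 85 IDs with a mean under 10 normalized reads 51.8% were called, and 50.6% were called and at least 4-fold apart. Among the 809 IDs with a mean of 10 to 100 normalized reads, the shares were 55.5% and 41.7%. Among the 3238 IDs at 100 to 1000 the shares were 51.3% and 19.4%, among the 3677 at 1000 to 10000 they were 46.9% and 11.8%, and among the 538 at 10000 and over 40.7% and 10.0%. An ID with a mean under 10 passed the filter only with at least 10 normalized reads in at least 2 libraries, above its own mean. The shares of that class are therefore in part set by the filter and are not read as an effect of level. Read counts also depend on transcript length, which the table does not give, so these are classes of read count and do not rank transcript levels.

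The widest differences were between a strain with many normalized reads and one with almost none. acu00007_9 had 13680, 6534, 12060 and 11550 normalized reads in BCC56535 (day 3 A and B, day 6 A and B) and 0, 0, 0 and 1.03 in BCC199. Only 1 read fell on it in the 4 BCC199 libraries together, a ratio of 46140 (95% exact binomial interval 8280 to 1822000, counting error only). Its log2 difference was 13.11 (SE 0.34, adjusted p = 2.1e-07, limma). On wheat bran-soybean it was again high in BCC56535, from 6839 to 22640, and at 0 to 7.22 in BCC199. HUT2365 lay in between in glucose, at 36.8 to 61.3.

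acu02372_1 was the other ID named as higher, with 17960, 16440, 21530 and 18560 normalized reads in BCC56535 and 36.6, 33.9, 4.6 and 6.2 in BCC199. The groups were far apart on both days (log2 difference 10.25, SE 0.50, adjusted p = 4.8e-06, limma). On wheat bran-soybean both strains were low and overlapped, with 19.6, 0, 0 and 0 normalized reads in BCC56535 and 14.2 to 30.9 in BCC199. The fitted difference there was negative (log2 difference -3.22, SE 0.93, adjusted p = 0.0174, limma), from values at or near the floor. The change of the strain difference between media was -13.48 on the log2 scale (adjusted p = 3.0e-06, limma).

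In the other direction, acu00508_2 had 0, 0, 1.26 and 0.959 normalized reads in BCC56535 and 8045, 7714, 9624 and 9277 in BCC199. With 2 reads in BCC56535, the ratio was 16430 (interval 4548 to 135700, counting error only), and the log2 difference was -12.54 (SE 0.26, adjusted p = 1.2e-07, limma). HUT2365 had 14540 to 17320 in glucose, so BCC56535 was the low strain of the 3. acu00072_1 had 0 reads in each BCC56535 library and 5684, 7712, 4049 and 3896 normalized reads in BCC199. BCC56535 was thus at least 6745-fold lower, taken against 3 reads over the group (log2 difference -12.32, SE 0.29, adjusted p = 1.2e-07, limma). Here HUT2365 was low too, at 2.79 to 12.6.

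Complete absence of reads was rare beside the 4097 calls. Among all 8615 IDs, 25 had 0 reads in every BCC199 glucose library and reads in every BCC56535 one, and 19 of these reached a mean of 10 normalized reads. The reverse held for 22 IDs, of which 15 reached 10. A mean of at least 100 was met by 8 and 6 IDs, and a mean of at least 1000 by 0 and 2. Of the 19 IDs without reads in BCC199, 9 also had 0 reads in its 4 wheat bran-soybean libraries and 10 had reads in at least 1 of them. Of the 15 without reads in BCC56535, the numbers were 7 and 8. Reads were present in all 8 glucose libraries for 8073 IDs.

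Differences between strains that both expressed an ID were therefore taken separately. At least 100 normalized reads in each of the 8 libraries were found for 6281 IDs, and 2755 of them (43.9%) were called, 1357 higher and 1398 lower in BCC56535. Calls of at least 4-fold made up 493. Over all 8347 IDs tested, 49.1% were called, and calls of at least 4-fold made up 1498 (17.9%). The minimum of 100 in each library leaves out IDs that are low in 1 strain, so the lower shares are partly set by it. acu06065_1 had 148600, 130100, 140900 and 106600 normalized reads in BCC56535 and 877.9, 953.9, 733.8 and 760 in BCC199, with a wide gap on both days (log2 difference 7.30, SE 0.17, adjusted p = 1.2e-07, limma), which is 158-fold. The medium made no detectable difference to this gap: on wheat bran-soybean the strains held 131600 to 170400 and 879.9 to 955.5 (interaction log2 0.03, adjusted p = 0.906, limma).

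acu03424_1 had 57080, 75600, 37760 and 55090 normalized reads in BCC56535 and 565.9, 1714, 2525 and 752.8 in BCC199 (log2 difference 5.55, SE 0.48, adjusted p = 5.3e-05, limma). Of those lower in BCC56535, acu04734_1 had 222.9, 904.9, 243.7 and 205.3 against 126800, 100200, 180300 and 158700 in BCC199 (log2 difference -8.76, SE 0.47). acu00538_1 had 328.4, 300.7, 367.4 and 600.6 against 52310, 110800, 61810 and 56800 (log2 difference -7.45, SE 0.31). For each of the 3 the lowest library of the higher strain was far above the highest of the other. HUT2365 sided with BCC199 for acu00538_1 (45840 to 49810 in glucose). For acu03424_1 it held 448.3 to 926.4, and for acu04734_1 1013 to 5207, both far below the higher strain.

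**Figure D3:**
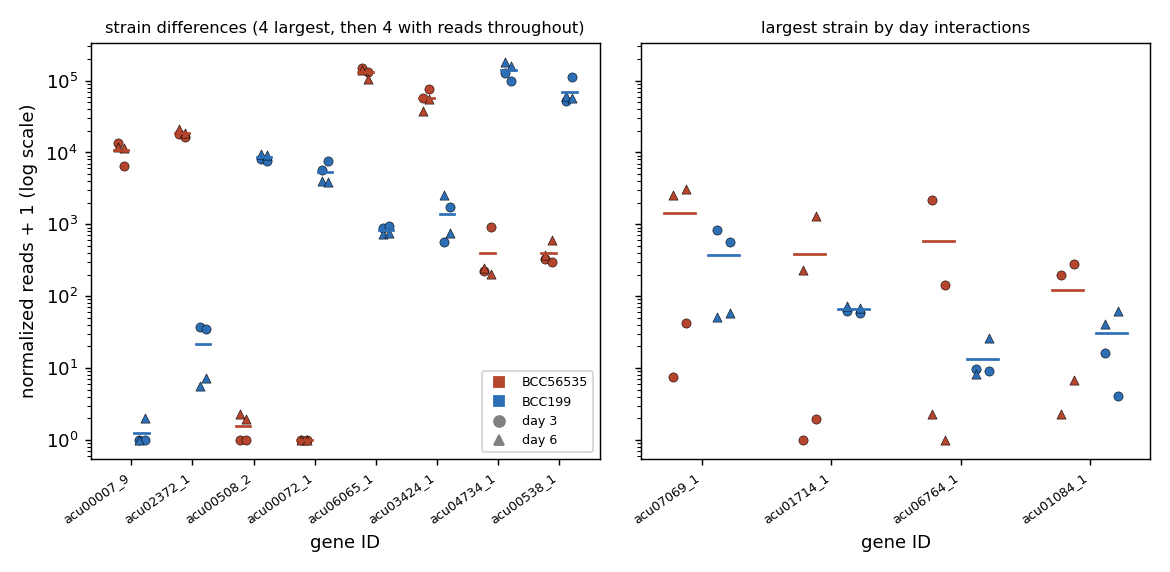
Normalized reads plus 1 (log scale) of named IDs in each glucose library; circles are day 3, triangles day 6, and bars the mean of the 4 libraries of a strain. On the left the strains lie apart for each ID on both days; on the right the order of the strains turns between day 3 and day 6.

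Most of the IDs with the most reads were common to the strains. acu03175_1 had the highest mean in both strains, with 218100, 249000, 116000 and 165300 normalized reads in BCC56535 and 120800, 244400, 215100 and 219500 in BCC199. The groups overlapped, and the log2 difference was -0.11 (95% interval -1.01 to 0.80, adjusted p = 0.842, limma). acu01168_1, next by reads in BCC56535, had 177500, 123100, 163500 and 155600 there and 92060, 193800, 137200 and 147700 in BCC199 (log2 difference 0.16, interval -0.62 to 0.93, adjusted p = 0.724). acu02920_1, next in BCC199, had 189900, 122300, 153200 and 102600 in BCC56535 and 138000, 178000, 161800 and 165000 in BCC199 (log2 difference -0.21, interval -0.94 to 0.52, adjusted p = 0.607). The strains overlapped for each of the 3, and differences as large as the ends of the intervals may be missed. HUT2365 had 25.9 to 50.1 normalized reads of acu01168_1 in glucose and 103400 to 116400 of acu02920_1.

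Of the 10 IDs with the most reads in each strain, 7 were common to both, and of the 100 with the most reads, 57. Of those 57, 4 were called. Of the 43 that reached the top 100 in BCC56535 alone, 23 were called higher there, and of the 43 of BCC199 alone, 35 were called lower in BCC56535. Over all IDs tested 49.1% were called, 24.6% higher and 24.5% lower, and 40.7% of those with a mean of 10000 and over. Whether an ID is in 1 or both of these lists is set by the same values as the test, so nothing is read from these counts. The top 100 of BCC56535 took 22.6% of its own reads and 17.6% of those of BCC199, and the top 100 of BCC199 took 22.8% of its own and 17.1% of those of BCC56535.

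IDs are made of a prefix and a member number, and the labels do not say what the prefixes mean. IDs that share a prefix with another ID were called somewhat more often, 547 of 956 tested (57.2%) against 3550 of 7391 (48.0%) among those alone in their prefix. Calls of at least 4-fold made up 33.4% of them against 15.95%. The classes were not matched for read count, with which the share of such calls varied. Of the 398 prefixes with at least 2 IDs tested, 167 had 2 or more calls. In 90 of these all calls pointed one way, and in 77 at least 1 ID was higher and another lower in BCC56535. Over all IDs tested the calls split about evenly, 24.6% higher and 24.5% lower, so calls both ways within a prefix are not read as a trait of prefixes. These shares are a description and were not tested, and reads shared between similar IDs could not be separated.

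By the naming rule, prefixes acu00007 and acu00021 had the largest opposite differences. acu00007_9, near 0 in BCC199, was set against acu00007_8, with 3.29, 0, 0 and 1.92 normalized reads in BCC56535 and 5331, 2851, 8655 and 4977 in BCC199. The latter had 5 reads in BCC56535, a ratio of 4202 (interval 1800 to 12940, counting error only). Its log2 difference was -11.39 (SE 0.57, adjusted p = 5.3e-06, limma). On wheat bran-soybean acu00007_8 stayed near 0 in BCC56535 (0.935 to 12.2) and had 234.2 to 527.4 in BCC199. HUT2365 had 0 to 0.928 in glucose. Within prefix acu00021, acu00021_1 had 1875, 4614, 109.8 and 478.7 in BCC56535 and 0.796, 33.9, 18.4 and 24.8 in BCC199 (log2 difference 5.95, SE 1.26, adjusted p = 0.0049, limma). acu00021_4 ran the other way, from 17.6 to 31.6 in BCC56535 and from 926.5 to 1655 in BCC199 (log2 difference -5.68, SE 0.29).

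The strains were then compared on each day. On day 3, 3507 IDs differed (42.0%), with BCC56535 higher for 1752 (21.0%) and lower for 1755 (21.0%). On day 6, 3828 differed (45.9%), with BCC56535 higher for 1909 (22.9%) and lower for 1919 (23.0%). Both days called 2361 IDs, which is 67.3% of the day 3 calls and 61.7% of the day 6 calls, and 2288 of them had the same direction. The other 73 pointed opposite ways. Across the 8347 IDs, which are not independent replicates, the differences of the days correlated at r = 0.787 (Spearman's rho 0.702). The days use different libraries but share an estimate of spread. In fits of each day alone 2042 IDs were called on both days, 1993 of them in the same direction. Without the BCC199 day 6 replicate A or B, 2188 and 2143 IDs were called on day 6.

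Whether the strain difference changed between the days was tested directly. The strain by day interaction called 449 IDs (5.38%), with BCC56535 gaining on BCC199 by day 6 for 220 (2.64%) and losing for 229 (2.74%). The 73 with opposite calls hold 71 of these, an overlap that the same values and the same fit largely fix. The larger change between days was in BCC56535 for 399 of the 449 (88.9%), against 67.5% of all IDs tested. The interaction picks IDs by unequal changes in the strains, so the share among the 449 is partly set by that choice. The median absolute log2 change between the days over all IDs was 0.48 in BCC56535 and 0.27 in BCC199. The count of interaction calls depended on single libraries. It was 272 without the BCC56535 day 3 replicate B, 146 without its day 6 replicate A, 280 without the BCC199 day 3 replicate A, and 83 and 41 without its day 6 replicate A or B.

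acu07069_1 turned most towards BCC56535. It had 6.59 and 40.8 normalized reads on day 3 and 2587 and 3141 on day 6 in BCC56535, and 829.3 and 562.2 on day 3 and 50.6 and 56.9 on day 6 in BCC199. The strain difference thus went from -5.26 to 5.70 on the log2 scale (interaction 10.97, SE 0.98, adjusted p = 0.0041, limma), while the difference over both days was 0.22 (adjusted p = 0.935). On each day the strains did not overlap. acu01714_1 had 0 and 0.949 normalized reads on day 3 and 232.3 and 1300 on day 6 in BCC56535, while BCC199 stayed between 57.6 and 72.7. Its interaction was 8.38 (SE 1.09, adjusted p = 0.0091, limma). It no longer passed with voom weights (adjusted p = 0.0785) or without the BCC199 day 6 replicate B (0.0536), in a range of 0.00041 to 0.0785 over the alternatives.

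acu06764_1 and acu01084_1 turned towards BCC199. acu01084_1 had 193.3 and 279.8 normalized reads on day 3 and 1.26 and 5.76 on day 6 in BCC56535, and 15.1 and 3.08 and then 39.6 and 61.0 in BCC199 (interaction -8.53, SE 1.13, adjusted p = 0.0096, limma). Without the BCC199 day 6 replicate B it did not pass (adjusted p = 0.0536, with 0.0025 to 0.0536 over the alternatives). acu06764_1 had 2181 and 140.4 on day 3 and 1.26 and 0 on day 6 in BCC56535, against 7.37 to 24.8 in BCC199 (interaction -9.16, SE 1.71, adjusted p = 0.0298, limma). Its call was lost in 8 of 17 alternatives, with an adjusted p of up to 0.239, and its day 3 replicates were far apart.

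**Figure D4:**
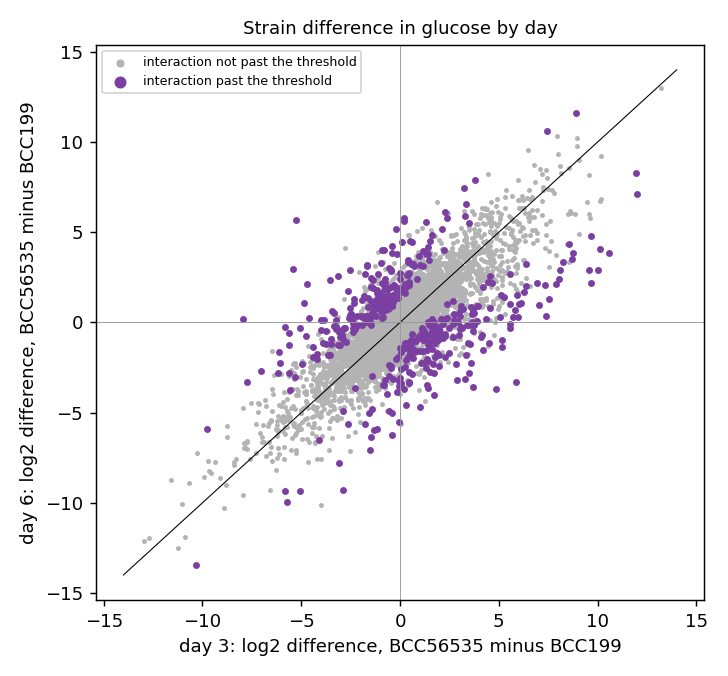
Strain difference in glucose (log2, BCC56535 minus BCC199) on day 6 against day 3 for the 8347 IDs tested; the line marks equal differences. Purple points are the 449 IDs whose interaction with day passed; over all 8347 IDs, the purple ones included, r was 0.787.

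The same strains on wheat bran-soybean, in 8 other libraries, showed which of the glucose differences were called again. There 5112 of 8318 IDs differed (61.5%), with BCC56535 higher for 2578 (31.0%) and lower for 2534 (30.5%). Of the 4024 glucose calls that were tested in both media, 2413 (60.0%) were called with the same direction on wheat bran-soybean, 1257 higher and 1156 lower in BCC56535. They make up 47.8% of the wheat bran-soybean calls. Another 350 were called with opposite directions, 179 of them higher in BCC56535 in glucose, and 1261 were called in glucose and did not pass on wheat bran-soybean. Of the 437 glucose calls of at least 16-fold tested in both media, 337 (77.1%) were called in the same direction and 23 in the opposite one. Across 8225 IDs the differences of the media correlated at r = 0.593 (Spearman's rho 0.520).

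The strain by medium interaction, fitted over the 16 libraries, called 2791 of 8447 IDs (33.0%), with a difference further towards BCC56535 on wheat bran-soybean for 1430 (16.9%) and further towards BCC199 for 1361 (16.1%). It called 526 of the 2413 IDs with the same direction in both media, 704 of the 1261 called in glucose but not on wheat bran-soybean, and each of the 350 with opposite calls. The last count rests on the same values as the 2 comparisons and is no separate evidence. For the rest of the 1261 no change of the strain difference between media was shown; this does not show that the media were alike there.

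acu00144_1 was higher in BCC56535 in glucose, at 3219, 55470, 20580 and 46700 normalized reads against 56.5, 208.7, 900.5 and 1101 in BCC199 (log2 difference 5.94, SE 0.89, adjusted p = 0.00085, limma). On wheat bran-soybean the order turned, with 9.78 to 84.1 in BCC56535 and 616.6 to 3035 in BCC199 (log2 difference -5.48, SE 0.28). acu07033_1 had 2640, 4678, 242.4 and 281.1 against 4.78, 22.6, 38.7 and 15.5 in glucose (log2 difference 5.80, SE 0.97). On wheat bran-soybean it had 102.9 to 561.9 in BCC56535 and 47030, 43710, 2182 and 1112 in BCC199 (log2 difference -5.00, SE 0.56). The strains did not overlap in either medium for these IDs.

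acu06525_1 was lower in BCC56535 in glucose, at 8.79, 0, 0 and 2.88 normalized reads against 167.1, 59.6, 143.6 and 95.1 (log2 difference -5.46, SE 0.82, adjusted p = 0.00086, limma). Pooled over libraries the ratio was 41.6 (interval 23.1 to 83.9, counting error only), with 11 reads in BCC56535. The 95% interval of the log2 difference from limma, which takes in the spread among libraries, was wider, at -7.32 to -3.59. On wheat bran-soybean BCC56535 had 203.6 to 389.3 and BCC199 0 to 3.51 (log2 difference 7.33, SE 0.36). acu08024_1 had 135.1, 76.8, 135.1 and 96.9 against 3128, 1207, 3241 and 3656 in glucose (log2 difference -4.57, SE 0.35), and 1213 to 11700 against 88.7 to 1198 on wheat bran-soybean (3.67, SE 0.27). On wheat bran-soybean its strains were apart on each day, and the lowest BCC56535 value (day 3) was close to the highest of BCC199 (day 6).

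**Figure D5:**
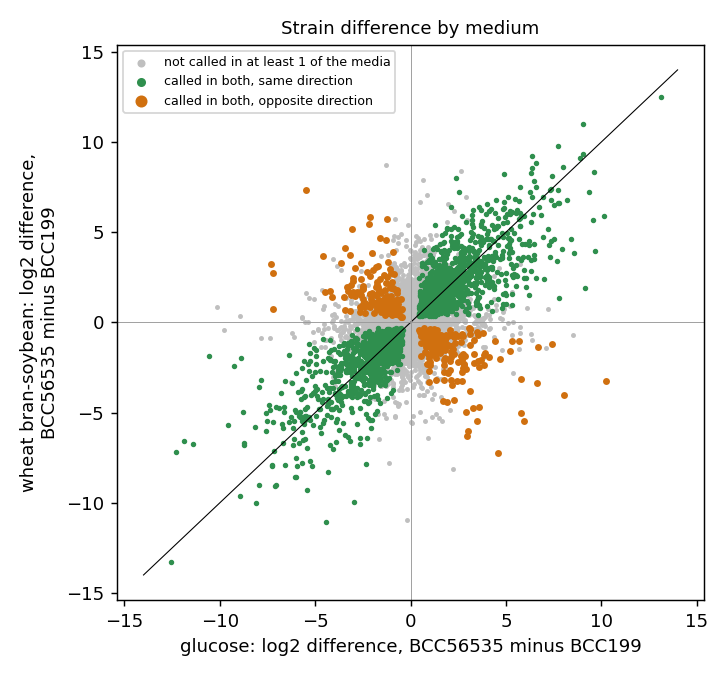
Strain difference (log2, BCC56535 minus BCC199) on wheat bran-soybean against glucose for the 8225 IDs tested in both media; the line marks equal differences. Green points are the 2413 IDs called in both media in the same direction and orange points the 350 called in opposite directions.

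HUT2365 in glucose gave a further level for the 3564 IDs that were called and did not overlap between BCC56535 and BCC199. Its mean lay nearer to BCC56535 for 1745 of them (49.0%) and nearer to BCC199 for 1819. All 4 HUT2365 libraries lay between the other strains for 600 IDs, above both for 373 and below both for 423. These are counts of levels and were not tested. The 3564 IDs were picked for a gap between BCC56535 and BCC199, which bears on how often HUT2365 falls inside or outside it. No share over all IDs tested was taken, so nothing is read from these counts.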

How the data were processed

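Per the labels' protocols, total RNA of mycelium was depleted of ribosomal RNA and enriched for mRNA before Illumina sequencing. HISAT2 2.1.0, StringTie and Picard are named, without their roles, per the submitters' processing notes. Genome build, annotation, counting tool and strand setting: not given in the sources used here. The deposited signal is a normalized read count per gene ID plus 1. After subtracting 1, 100% of the values of every library came out as whole multiples of a library-specific step (tolerance 0.02 steps). Reads recovered by dividing by that step served for depth, zeros and ratios. Per-library depth is given with the results.

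For this work, limma 3.58.1 (R 4.3.3) was fitted to log2 of the deposited values, that is log2(normalized reads + 1), which understates the change of low IDs. The 8 glucose libraries entered with strain and day as terms, which left 5 residual degrees of freedom; comparisons by day used 4 group means, and the comparison of media used the 16 libraries of both strains with day within medium. Variances were moderated with an intensity trend, tests were two-sided, and p-values were adjusted by Benjamini-Hochberg over all IDs with at least 10 normalized reads in at least 2 libraries of the fit (8347 kept and 268 left out in glucose). Normalized reads are printed without the constant of 1. Ratios with few reads in the lower strain carry 95% exact binomial intervals, and with 0 reads a bound against 3 reads over the group. Both pool the reads of a strain and leave out the spread among its libraries. The fit was also run on simulated libraries with independent noise and no day effect, unlike these data, and no result here rests on that run.

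The rule for named IDs took at most 2 IDs in each direction per comparison: the largest strain differences without overlap and with a mean of at least 100, the largest interactions with day, the largest differences among IDs with at least 100 in each library, the IDs with the most reads, 2 prefixes with opposite calls, and the largest opposite differences between media. The comparison, the rule and the tests were chosen with earlier results of these data known. Alternatives were an offset of 0.5 or 10, no filter, trimmed-mean or quantile scaling, all 24 libraries in the fit, no intensity trend, no day covariate, group means, a block for the replicate letter, and leaving out each library. Voom weights on the recovered reads and fits of each day alone were added after the data were seen. Tables and figures were made in Python 3.11.15 (pandas 2.3.3, numpy 2.4.6, matplotlib 3.10.9, scipy 1.17.1).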

Additional observations from a re-analysis of the deposited data

Results flagged for a closer look

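Among 45 sets of 4 glucose libraries of a strain, 1 library stood apart from the other 3 in 4 sets. The rule is set to about 1 in 20 for values of a single group. These sets mix day 3 and day 6, share libraries and mostly belong to IDs named from the same values. The count is therefore not read against that rate. These were acu06764_1 in BCC56535 (2181 in the day 3 replicate A) and in BCC199 (24.82 in the day 6 replicate B), acu04734_1 in BCC56535 (904.9 in the day 3 replicate B) and acu00538_1 in BCC199 (110800 in the day 3 replicate B). Values are normalized reads.

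For 14 of the 22 named IDs the strain difference itself differed between days or media (limma, adjusted p under 0.05). The naming rule chose 8 of these for their interaction with day or their opposite differences between media, so the count is largely set by the rule. Over all IDs tested the strain difference changed with day for 5.38% and with medium for 33.0%. Between day 3 and day 6 it moved, on the log2 scale, by 2.73 for acu02372_1, 10.97 for acu07069_1, 8.38 for acu01714_1, -9.16 for acu06764_1, -8.53 for acu01084_1 and -4.88 for acu07033_1. From glucose to wheat bran-soybean it moved by -13.48 for acu02372_1, 5.15 for acu00072_1, -2.38 for acu03424_1, 3.82 for acu04734_1, 2.89 for acu00538_1, 4.63 for acu00007_8, -11.43 for acu00144_1, -10.80 for acu07033_1, 12.78 for acu06525_1 and 8.24 for acu08024_1.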

How the results depend on the processing

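The strain effect in glucose gave 3905 to 5492 calls under the settings other than left-out libraries, and 3303 to 3854 without any 1 library, with 1651 to 1932 higher and 1652 to 1935 lower in BCC56535. The 24-library fit gave 5492 and shared 4077 of the 4097 calls, and voom weights gave 4097 and shared 4033. Called counts without any 1 library ran from 2651 to 3714 for day 3, from 2143 to 3939 for day 6, from 41 to 502 for the strain by day interaction, from 4448 to 4965 for wheat bran-soybean and from 2353 to 3040 for the strain by medium interaction. The strain by day interaction also moved to 289 without a filter, to 1552 in the 24-library fit and to 297 with voom weights. The cause was not tested. All 41 calls left without the BCC199 day 6 replicate B, and all 83 without its replicate A, were among the 449.

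Strain differences of the named IDs that passed in glucose passed with the same direction in all 19 alternatives. The differences in IDs with 0 reads ran from -37.4 to -11.4 without any 1 library, and those in the share of the top 10 IDs from -0.521 to 0.0358 percentage points. Small differences that never passed turned for acu03175_1 (0.106 without the BCC56535 day 6 replicate A and 0.0096 without the BCC199 day 6 replicate B, with -0.417 to 0.106 over the left-out libraries) and for acu01168_1 (-0.0575 without the BCC199 day 3 replicate A, with -0.0575 to 0.372). The labels do not say that a replicate letter marks a shared batch or day. On the third principal component replicate A nonetheless stood above replicate B in each strain on each day, narrowly in BCC199 on day 6 (-12.0 against -15.2). The A minus B differences of the 4 groups correlated at -0.014 to 0.219 over the 6 pairs of groups. Between the strains the value was 0.196 on day 3 and 0.010 on day 6, and between the days of BCC56535 it was 0.219. Of the 6, 2 were over 0.1. The main fits did not take the letters as pairs, and fits with the letter as a block follow. With the replicate letter as a block 3906 IDs were called for the strain effect, 3529 on day 3, 3860 on day 6, 496 for the interaction with day, 4845 on wheat bran-soybean and 2659 for the interaction with medium.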
